A study of Mus musculus with 16 samples.

Results

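The sensors of the unfolded protein response (UPR) and the enzymes that process them were followed as 9 genes out of the 25105 in the expression table: Ern1, Eif2ak3, Atf6, Atf6b, Xbp1, Mbtps1, Mbtps2, Creb3 and Creb3l2. They were taken by name, as the genes for IRE1, PERK and the membrane-bound transcription factors of the endoplasmic reticulum (ER), together with the direct substrate of IRE1 and the proteases that release the membrane-bound factors. Values came from 16 poly(A) libraries of dispersed mouse islet cells with the genotype Grp78 flox/flox, carried by all groups. Cells of 4 islet preparations (F1, M1, M2 and F2) received adenovirus with LacZ (Ad-LacZ) or Cre recombinase (Ad-Cre), each with DMSO (groups Ad-LacZ and Ad-Cre) or with the pan-JNK inhibitor JNK-IN-8 (groups named with + JNK inhibitor), for 72 hours in 15 mM glucose. Each of the 4 groups held 4 libraries, 1 per preparation. The labels give a pair of animal numbers for each preparation, whereas the study's methods count 4 mice, of both sexes. F and M in the preparation names were read as female and male. Sex thus differed between preparations. The study describes the mice as adult and used a wide range of ages for islet cultures. The virus can enter any islet cell, so the Cre recombinase was not limited to β cells.

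GRP78, the ER chaperone encoded by Hspa5, binds the luminal side of IRE1, PERK and ATF6 in unstressed cells and leaves them when unfolded proteins build up. IRE1 then cuts an intron from Xbp1 mRNA in the cytoplasm, PERK phosphorylates eIF2α and slows translation, and ATF6 moves to the Golgi, where the site-1 and site-2 proteases (encoded by Mbtps1 and Mbtps2) cut it and free a transcription factor. All of these steps act on protein or on splicing, so the mRNA level of a sensor is not a measure of its activity. β cells make large amounts of proinsulin in the ER and depend on this response. Islet cells hold several cell types, and in these bulk libraries fewer cells of a type and less RNA per cell cannot be told apart.

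The mRNA value of the targeted gene was higher, not lower, in the libraries labelled as knockdown. The study checked the knockdown separately, by qPCR on parallel aliquots of the RNA and by immunoblot, with results not restated here. Hspa5 was at 438 ± 49.0 RPKM (reads per kilobase of transcript, scaled to library size, SD, n = 4) in the libraries labelled Ad-LacZ and at 1264 ± 231 RPKM (SD, n = 4) in the libraries labelled Ad-Cre. The same libraries also had more mRNA of the ER chaperone genes Hsp90b1 (GRP94) and Calr, by 1.72 and 1.58 on the log2 scale (both called by limma). One value per gene pools the floxed exons with the rest, so directions below are those of the libraries labelled Ad-Cre. Depth, read from the steps between low values, was 7.6 to 25.4 M (mega) reads. For some libraries this estimate was below the range of counts that the study's methods state, and the reason was not examined. The shallowest library was Ad-Cre + JNK inhibitor F2, whose label carries another run code and lane. The markers of islet endocrine cells were abundant in all groups, and no marker of any list was at 0 in all libraries. Beside the comparison of Ad-Cre with Ad-LacZ stand shifts in the markers of cell types. The 7 β cell markers other than insulin summed to 1565 to 2136 RPKM in Ad-LacZ and 327.5 to 878.6 RPKM in Ad-Cre. With the insulin genes included, all 9 summed to 48357 to 79298 RPKM in Ad-LacZ and 31145 to 80227 RPKM in Ad-Cre. These wider ranges overlapped. All 9 β cell markers had a negative log2 fold change (median -1.25). Of these 9, 3 were called lower, against 9.79% of all genes. The 6 macrophage markers summed to 77.1 to 86.2 RPKM in Ad-LacZ and 78.1 to 219 RPKM in Ad-Cre. Of these, 2 of 6 were called higher, against 9.20% of all genes. The 5 stellate and fibroblast markers summed to 23.5 to 105 RPKM in Ad-LacZ and 21.8 to 662 RPKM in Ad-Cre, the highest being M2. Of the stellate and fibroblast markers 4 were tested and 0 called. The ranges of both groups overlapped for the macrophage and for the stellate and fibroblast markers. They also overlapped for α, δ, PP, endothelial, acinar and duct markers. The part of these shifts in the results below was not tested.

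The step that IRE1 performs on Xbp1 lies outside what values per gene can show, and the sequence makes clear why. In transcript Xbp1-201 of GENCODE M21 (2129 bases), the 26 bases that IRE1 removes lie in coding exon 4, at chr11:5524279-5524304 on the plus strand of GRCm38. They were found as a pair of C-N-G/C-A-G cut sites 26 bases apart whose removal lengthens the reading frame, which held for 1 of 2 such pairs. The stretch at chr11:5524252-5524331 is shown with the removed bases in capitals.
Xbp1 exon 4: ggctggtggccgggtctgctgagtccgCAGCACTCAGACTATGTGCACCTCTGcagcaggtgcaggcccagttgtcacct
With these bases in place the reading frame held 267 codons, and without them 371 codons. The spliced form encodes the active transcription factor XBP1s. Reads of both forms enter one Xbp1 value, so the share of spliced Xbp1 was not analysed here.

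Promoter sequence was compared because ATF6, XBP1s and ATF4 act through short motifs. RefSeq promoters on GRCm38.p6 (250 bases before to 50 after the start) were at hand for 8 of the 9 genes, all but Atf6. Both strands were searched for the ER stress element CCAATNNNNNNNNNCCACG, the related element ATTGGNCCACG (ERSE-II), the UPR element core TGACGTG and the ATF4 composite element core TGATGNAA. Of all 32851 promoters of this length, 0.119% held the first, 0.0365% the second, 2.01% the third and 3.97% the fourth. None of the 8 promoters held any of them in this window. The 250 bases before the start of Eif2ak3 (chr6:70844265-70844514, plus strand) and of Hspa5 (chr2:34771840-34772089, plus strand) are shown because Eif2ak3 rose in the libraries labelled Ad-Cre, as did Hspa5. Capitals mark the fixed bases of matched motifs.
Eif2ak3: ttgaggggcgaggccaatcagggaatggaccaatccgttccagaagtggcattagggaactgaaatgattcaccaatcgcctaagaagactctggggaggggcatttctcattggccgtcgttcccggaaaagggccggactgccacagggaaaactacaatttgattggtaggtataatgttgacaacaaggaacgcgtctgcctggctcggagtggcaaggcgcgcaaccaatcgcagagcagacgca
Hspa5: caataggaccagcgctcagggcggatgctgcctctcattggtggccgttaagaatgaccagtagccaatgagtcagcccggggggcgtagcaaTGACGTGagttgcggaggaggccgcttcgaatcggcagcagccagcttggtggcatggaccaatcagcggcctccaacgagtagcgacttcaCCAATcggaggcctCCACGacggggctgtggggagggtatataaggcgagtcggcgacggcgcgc
The Hspa5 window held an ER stress element from base -65 to -47 and a UPR element core from base -157 to -151, counted from the start. A match is a string of letters and not a measured binding site.

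In the Ad-LacZ libraries the 9 mRNAs differed widely in level per length. Xbp1 was highest at 99.9 ± 12.5 RPKM (SD, n = 4), above 97.3% of the 11574 genes over 1 RPKM in Ad-LacZ, and its range did not overlap that of the next gene. Atf6 followed at 36.7 ± 3.89 RPKM and Creb3 at 33.1 ± 3.73 RPKM, with overlapping ranges (each ± is an SD over n = 4). Then came a group of similar level, in which each gene overlapped the next. It held Atf6b at 22.5 ± 4.56, Creb3l2 at 22.1 ± 1.54, Ern1 at 21.9 ± 2.11, Mbtps1 at 18.0 ± 2.32 and Eif2ak3 at 16.8 ± 1.54 RPKM. Mbtps2 stood apart at 2.76 ± 0.39 RPKM, above 20.3% of those genes, and its range overlapped none of the others. The site-2 protease mRNA was thus the scarcest of the set, with about 162 to 846 reads per library over all groups, against 1842 to 8166 for Xbp1.

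**Figure D1:**
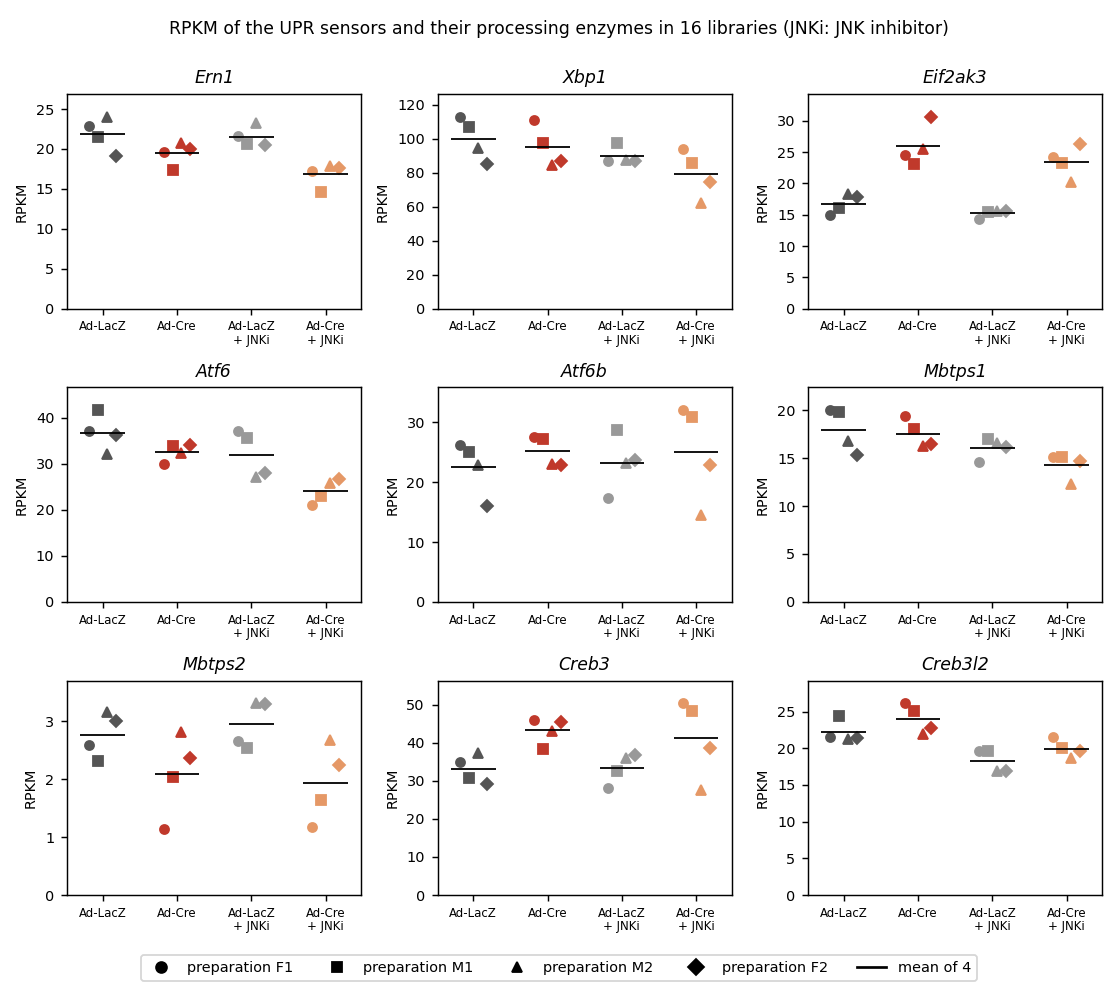
RPKM of each of the 9 genes (vertical axes from 0) in the 4 groups, with a point per library shaped by preparation and a line at the mean of 4; JNKi stands for the JNK inhibitor. Eif2ak3 ranged from 14.9 to 18.2 RPKM in Ad-LacZ and from 23.1 to 30.5 RPKM in Ad-Cre, without overlap.

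The first comparison asked how the libraries labelled Ad-Cre differed from Ad-LacZ. Of the 3 classical sensors, the PERK gene Eif2ak3 rose 1.54-fold, while Ern1 and Atf6 did not pass the test and neither did Xbp1. The ER membrane factor gene Creb3 rose 1.32-fold, with a call that most alternatives lost. Together 2 of 9 genes were called at an adjusted p under 0.05 (limma with Benjamini-Hochberg adjustment over 11590 genes), both higher. Over all genes tested 19.0% were called, 9.20% higher and 9.79% lower, so 2 of 9 was close to the background. The median log2 fold change of the 9 genes was -0.01, and that of all genes 0.02. Groups did not overlap for 2 of 9 genes, against 27.2% of all genes. With the preparation as a block, 34.7% of all genes were called and again 2 of the 9.

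Eif2ak3 encodes PERK, the kinase that phosphorylates eIF2α. It lies at chr6:70844515-70905245 on the plus strand. In Ad-LacZ it was at 14.9 (F1), 16.1 (M1), 18.2 (M2) and 17.8 (F2) RPKM, and in Ad-Cre at 24.6, 23.1, 25.4 and 30.5 RPKM in the same order. All 4 Ad-Cre libraries were above all 4 Ad-LacZ libraries. Eif2ak3 had a log2 fold change of 0.62 (SE 0.10, 95% confidence interval 0.40 to 0.84, adjusted p = 0.00525 by limma). Within preparations the difference was between 0.50 and 0.75, and positive in 4 of 4. The exact two-sided permutation test gave p = 0.0286, the smallest that 4 libraries against 4 allow. The call held in each of 10 alternatives, with values from 0.57 to 0.66.

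Creb3 encodes a transcription factor anchored in the ER membrane and released by the same proteases as ATF6. It lies at chr4:43562332-43567060 on the plus strand. In Ad-LacZ it was at 35.1 (F1), 30.7 (M1), 37.3 (M2) and 29.3 (F2) RPKM, and in Ad-Cre at 46.0, 38.5, 43.1 and 45.5 RPKM. The groups did not overlap, although the lowest Ad-Cre library (M1) was only just above the highest Ad-LacZ library (M2). Its log2 fold change of 0.40 had a standard error of 0.11 (adjusted p = 0.0315 by limma, and p = 0.0286 in the exact permutation test). The adjusted p was 0.0143 with the preparation as a block, but 0.0654 to 0.156 when each preparation was left out in turn. It was also over the threshold with no filter (0.0939), with quantile normalization (0.0866) and with all 16 libraries in one fit (0.0979), so the call held in 3 of 10 alternatives.

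Ern1 encodes IRE1, the kinase and endoribonuclease that splices Xbp1, and lies at chr11:106394650-106487852 on the minus strand. It was at 22.9 (F1), 21.5 (M1), 24.0 (M2) and 19.1 (F2) RPKM in Ad-LacZ and at 19.7, 17.4, 20.7 and 20.0 RPKM in Ad-Cre. The ranges overlapped, and Ad-Cre was the higher in 1 of 4 preparations (F2). Ern1 thus had a log2 fold change of -0.14 (95% confidence interval -0.35 to 0.07, adjusted p = 0.338 by limma).

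Xbp1 encodes the factor that IRE1 activates and lies at chr11:5520659-5525893 on the plus strand. It was at 113 (F1), 107 (M1), 94.6 (M2) and 85.0 (F2) RPKM in Ad-LacZ and at 111, 97.8, 84.9 and 86.8 RPKM in Ad-Cre. In both groups F1 was the highest and M2 and F2 were the lowest, so the groups overlapped. Xbp1 had a log2 fold change of -0.05 (95% confidence interval -0.42 to 0.33, adjusted p = 0.868 by limma). In the fit with a preparation block this interval narrowed to -0.26 to 0.16.

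Atf6 and Atf6b encode the paralogous factors ATF6α and ATF6β, of which ATF6α is the stronger activator. Atf6 (chr1:170704674-170867771, minus strand) was at 37.2 (F1), 41.6 (M1), 32.1 (M2) and 36.1 (F2) RPKM in Ad-LacZ and at 29.9, 33.7, 32.3 and 34.0 RPKM in Ad-Cre. Its log2 fold change was -0.14 (95% confidence interval -0.42 to 0.13, adjusted p = 0.437 by limma). Atf6b (chr17:34647146-34655074, plus strand) was at 26.1, 25.0, 22.9 and 16.0 RPKM in Ad-LacZ and at 27.5, 27.3, 23.0 and 22.9 RPKM in Ad-Cre. It was the higher in Ad-Cre in 4 of 4 preparations, but by little in M2, and the groups overlapped. For Atf6b this gave a log2 fold change of 0.20 (95% confidence interval -0.21 to 0.60, adjusted p = 0.471 by limma).

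The processing enzymes did not pass the test either. Mbtps1, the gene of the site-1 protease (chr8:119508156-119558735, minus strand), was at 20.0 (F1), 19.9 (M1), 16.8 (M2) and 15.3 (F2) RPKM in Ad-LacZ and at 19.4, 18.1, 16.3 and 16.5 RPKM in Ad-Cre. Its log2 fold change was -0.01 (95% confidence interval -0.33 to 0.32, adjusted p = 0.985 by limma). Mbtps2, the gene of the site-2 protease (chrX:157535371-157598715, minus strand), was at 2.59, 2.31, 3.16 and 3.00 RPKM in Ad-LacZ and at 1.13, 2.04, 2.81 and 2.37 RPKM in Ad-Cre. Every preparation was lower in Ad-Cre, F1 by the most, and the groups overlapped. On the log2(RPKM + 1) scale, which understates the change of such a low gene, the fold change was -0.30 (95% confidence interval -0.65 to 0.05, adjusted p = 0.206 by limma). With the preparation as a block its unadjusted p was 0.0418 and its adjusted p 0.0921 (limma).

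Creb3l2, the gene of a further ER membrane factor cut by these proteases, lies at chr6:37327255-37442146 on the minus strand. It was at 21.5 (F1), 24.5 (M1), 21.3 (M2) and 21.3 (F2) RPKM in Ad-LacZ and at 26.1, 25.0, 21.9 and 22.8 RPKM in Ad-Cre. Ad-Cre was the higher in 4 of 4 preparations, but the ranges overlapped. Creb3l2 had a log2 fold change of 0.13 (95% confidence interval -0.15 to 0.41, adjusted p = 0.491 by limma).

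**Figure D2:**
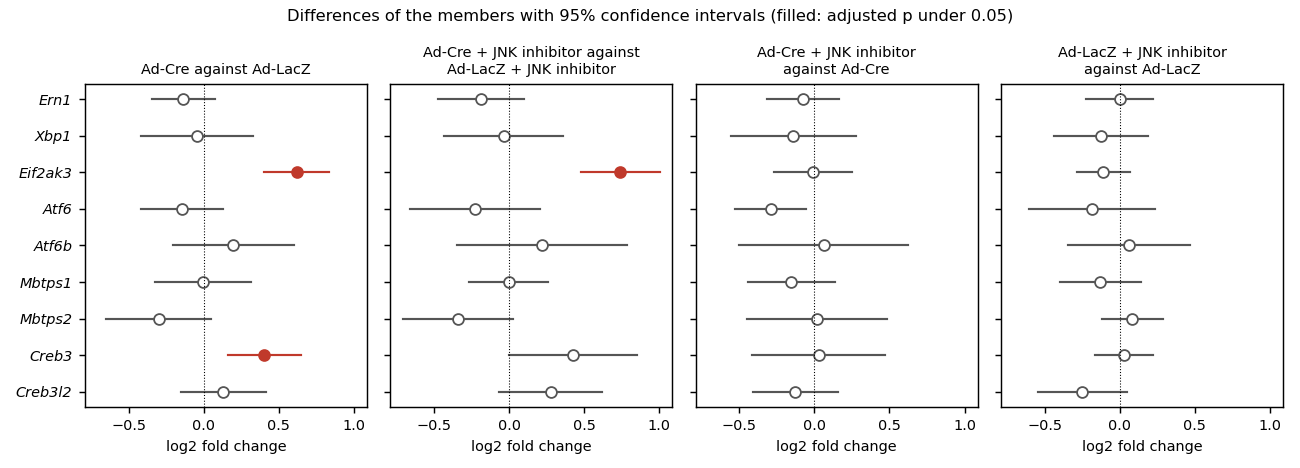
Log2 fold change (horizontal axis) of the 9 genes in 4 comparisons of 4 libraries against 4, with 95% confidence intervals from limma; filled points have an adjusted p under 0.05. Eif2ak3 is filled in both comparisons of the viruses (0.62 and 0.74), Creb3 in the first, and none in the comparisons of the inhibitor.

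The second comparison set Ad-Cre + JNK inhibitor against Ad-LacZ + JNK inhibitor, and its libraries are all different from those of the first but come from the same preparations. Eif2ak3 was the 1 gene of 9 that was called, and it was higher. Over the 11598 genes tested 21.7% were called, 12.1% higher and 9.67% lower. With the preparation as a block these were 23.9% of all genes and 1 of the 9. On the scaled values used for the tests, groups did not overlap for 1 of 9 genes and for 26.7% of all genes.

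With the inhibitor, Eif2ak3 was at 14.3 (F1), 15.4 (M1), 15.6 (M2) and 15.6 (F2) RPKM in Ad-LacZ and at 24.2, 23.2, 20.3 and 26.2 RPKM in Ad-Cre. The groups stood apart as they did without the inhibitor. Here the log2 fold change was 0.74 (SE 0.12, 95% confidence interval 0.48 to 1.00, adjusted p = 0.00323 by limma), a 1.67-fold difference. Beside it, the 7 β cell markers other than insulin summed to 1711 to 2529 RPKM in Ad-LacZ + JNK inhibitor and 315.9 to 693.1 RPKM in Ad-Cre + JNK inhibitor. All 9, with the insulin genes, summed to 32506 to 55890 and 32069 to 57996 RPKM, which overlapped. The duct markers summed to 376 to 909 and 217 to 305 RPKM, and the δ cell markers to 1266 to 3031 and 2466 to 6831 RPKM. Their part in this result was not tested. The call held in 10 of 11 alternatives. Without preparation M1 the value was 0.77 with an adjusted p of 0.0502 by limma.

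Creb3 was at 28.0 (F1), 32.7 (M1), 35.9 (M2) and 36.7 (F2) RPKM in Ad-LacZ + JNK inhibitor and at 50.3, 48.4, 27.5 and 38.7 RPKM in Ad-Cre + JNK inhibitor. M2 was the 1 preparation in which the Ad-Cre library was the lower, and the groups overlapped. Creb3 had a log2 fold change of 0.43 (SE 0.19, adjusted p = 0.137 by limma). Without preparation M2 it was 0.59 with an adjusted p of 0.0229 by limma.

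Ern1 was at 21.7 (F1), 20.6 (M1), 23.3 (M2) and 20.5 (F2) RPKM in Ad-LacZ + JNK inhibitor and at 17.2, 14.6, 17.9 and 17.7 RPKM in Ad-Cre + JNK inhibitor. On this deposited scale the ranges were apart, whereas after TMM scaling (trimmed means of log ratios) they overlapped. Ern1 had a log2 fold change of -0.19 (adjusted p = 0.326 by limma), and with RPKM as deposited it was -0.34 (adjusted p = 0.0431). Xbp1 was at 87.1, 97.3, 87.9 and 87.1 RPKM in Ad-LacZ + JNK inhibitor and at 94.2, 86.0, 62.0 and 74.6 RPKM in Ad-Cre + JNK inhibitor. Its log2 fold change was -0.04 (adjusted p = 0.911 by limma), and with quantile normalization -0.41 (adjusted p = 0.0226). The calls of both genes thus depended on the scaling of the libraries.

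The remaining 5 genes were not called. Atf6 had a log2 fold change of -0.23 (adjusted p = 0.430 by limma), while its mean in RPKM as deposited went from 32.0 to 24.2. With RPKM as deposited its value was -0.38 (adjusted p = 0.0761 by limma), and it ranged from -0.06 without preparation F1 to -0.39 without M2. Atf6b had 0.22 (adjusted p = 0.567), and its Ad-Cre + JNK inhibitor libraries ran from 14.5 RPKM in M2 to 32.0 RPKM in F1. Mbtps1 had -0.00 (adjusted p = 0.987). Among these 5 the scarce Mbtps2 and the membrane factor gene Creb3l2 had the most distant values from 0. Mbtps2 had -0.34 (adjusted p = 0.162 by limma) and was lower in 3 of 4 preparations after TMM scaling. In RPKM as deposited it was lower in 4 of 4, with 1.17, 1.63, 2.68 and 2.24 RPKM in Ad-Cre + JNK inhibitor. Creb3l2 had 0.28 (adjusted p = 0.224 by limma) and was the higher in 4 of 4 preparations.

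The inhibitor comparisons asked whether JNK-IN-8 changed these mRNAs within a virus. Macrophage markers summed to 151 to 330 RPKM in Ad-LacZ + JNK inhibitor, above the 77.1 to 86.2 RPKM in Ad-LacZ. In Ad-Cre + JNK inhibitor they summed to 187 to 325 RPKM, overlapping the 78.1 to 219 RPKM in Ad-Cre. Duct markers summed to 136 to 274 RPKM in Ad-LacZ and 376 to 909 RPKM in Ad-LacZ + JNK inhibitor. The δ cell markers summed to 1134 to 2551 RPKM in Ad-Cre and 2466 to 6831 RPKM in Ad-Cre + JNK inhibitor, which just overlapped. The part of these shifts was not tested. Both inhibitor comparisons share libraries with the comparisons above, so their values are not independent of them. When the inhibitor was added to Ad-Cre, limma called 0 of the 9 genes and 0% of 11503 genes. At an unadjusted p under 0.05 it gave 1 of 9 genes and 9.54% of all genes. With the preparation as a block 0 of 9 genes and 6.08% of all genes were called. After TMM scaling groups did not overlap for 1 of 9 genes and for 7.10% of all genes.

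That gene was Atf6, which had the lowest adjusted p of the 9 in this comparison. It was at 29.9 (F1), 33.7 (M1), 32.3 (M2) and 34.0 (F2) RPKM in Ad-Cre and at 20.99, 23.1, 25.8 and 26.7 RPKM in Ad-Cre + JNK inhibitor. All 4 libraries with the inhibitor were below all 4 without it. This was a log2 fold change of -0.29 (95% confidence interval -0.53 to -0.06, unadjusted p = 0.0203, adjusted p = 0.409 by limma). With a preparation block the adjusted p was 0.0956. The exact permutation test gave p = 0.0286 before adjustment for the 9 genes and 4 comparisons.

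Eif2ak3 gave -0.01 in the same comparison, with a 95% confidence interval of -0.27 to 0.25 (adjusted p = 0.991 by limma). Its level in the libraries labelled Ad-Cre was 25.9 ± 3.24 RPKM without and 23.5 ± 2.46 RPKM with the inhibitor (SD, n = 4). Xbp1, Mbtps1 and Creb3l2 were lower with the inhibitor in 4 of 4 preparations, with log2 fold changes of -0.14, -0.15 and -0.13. Their adjusted p-values were 0.876, 0.774 and 0.816 (limma). In RPKM as deposited Mbtps1 and Creb3l2 also had ranges apart, which overlapped after TMM scaling. Mbtps1 was at 16.3 to 19.4 without and 12.3 to 15.1 with the inhibitor, and Creb3l2 at 21.9 to 26.1 and 18.6 to 21.5. Ern1 gave -0.08, Atf6b 0.06, Mbtps2 0.02 and Creb3 0.03, all within their standard errors.

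Between Ad-LacZ + JNK inhibitor and Ad-LacZ, 0 of 9 genes were called by limma, and 0.206% of 11657 genes. At an unadjusted p under 0.05 the counts were 0 of 9 genes and 6.35% of all genes, and with the preparation as a block 0 of 9 and 0.360% were called. After TMM scaling groups overlapped for all 9 genes and did not overlap for 4.70% of all genes. In RPKM as deposited the Creb3l2 ranges were apart, at 21.3 to 24.5 without and 16.9 to 19.6 with the inhibitor. The share of all genes was not counted on that scale. Creb3l2 had the most negative value, from 22.1 ± 1.54 to 18.2 ± 1.54 RPKM (SD, n = 4) and a log2 fold change of -0.25 (95% confidence interval -0.55 to 0.05, adjusted p = 0.894 by limma). Atf6 gave -0.18, from 36.7 ± 3.89 to 32.0 ± 5.20 RPKM (SD, n = 4). After TMM scaling Xbp1 was the 1 gene lower in 4 of 4 preparations (log2 fold change -0.13), and Mbtps2 the 1 gene higher in 4 of 4 (0.08). In RPKM as deposited Xbp1 was higher with the inhibitor in F2 (85.0 to 87.1), whereas Creb3l2 was lower in every preparation. The others lay between -0.13 for Mbtps1 and 0.06 for Atf6b, with Eif2ak3 at -0.11, Ern1 at -0.00 and Creb3 at 0.03.

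Whether the difference between the viruses changed with the inhibitor was tested as an interaction over all 16 libraries. It was called for 0 of the 9 genes and for 0.0163% of 12274 genes (limma). For Eif2ak3 it was 0.12 on the log2 scale (95% confidence interval -0.16 to 0.41, adjusted p = 1.0 by limma). For the 9 genes it lay between -0.08 (Atf6) and 0.15 (Creb3l2). The intervals were wide for Atf6b, from -0.69 to 0.74, and do not show that the responses were alike.

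Over the 16 libraries the 9 genes differed in what their spread followed. The virus accounted for 90.4% of the sum of squares of Eif2ak3 log2 values, the preparation for 3.5% and the inhibitor for 0.4%. Xbp1 was the opposite, with 1.4% for the virus and 85.0% for the preparation. Mbtps1 was like Xbp1, with 0.2% for the virus and 73.3% for the preparation. Creb3 had 48.5%, Mbtps2 41.0% and Ern1 39.6% for the virus. For Ern1 the preparation took a similar 41.6%. Atf6 had the highest share for the inhibitor, 20.9%, with 16.6% for the virus and 38.6% in no term. These shares describe 16 libraries and carry no test.

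**Figure D3:**
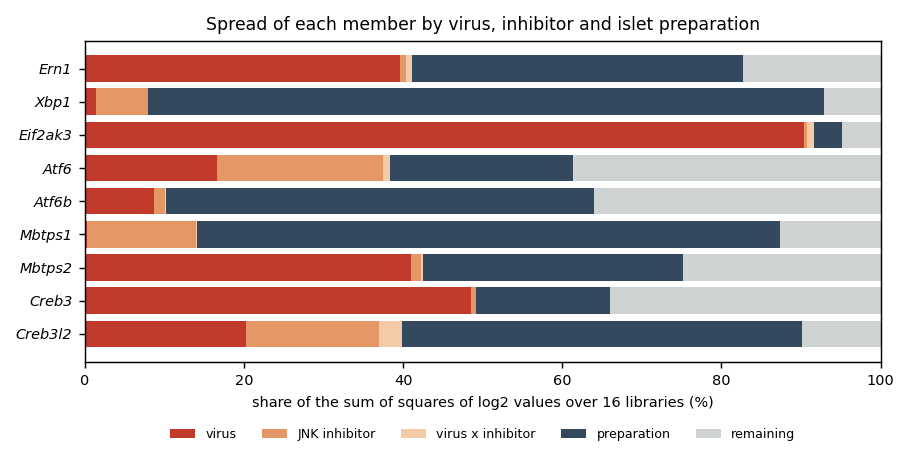
Share of the sum of squares of log2 values over 16 libraries (horizontal axis, %) that went with virus, inhibitor, their interaction, islet preparation or none of these, for each of the 9 genes. The virus takes 90.4% for Eif2ak3 and the preparation 85.0% for Xbp1.

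Genes with the most similar profile over the 16 libraries, after removal of preparation means, were sought among 12273 genes by Pearson's r. The points share preparations and groups, so the r values are descriptions without a test. For Eif2ak3 they were Dhdds (0.989), Cnpy3 (0.984) and Rgcc (0.981). For Xbp1 they were Zdhhc8 (0.984), Gtf2i (0.963) and Fam131a (0.956). For Ern1 they were Slc35f1 (0.947), Tenm2 (0.916) and C330018D20Rik (0.915), and for Atf6 Ppp3ca (0.936), Steap2 (0.932) and Wdr75 (0.930). The 4 profiles had no gene in common among their nearest 3.

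The partners of the sensors were counted from lists, again in Ad-Cre against Ad-LacZ (limma, adjusted p under 0.05). Of 9 PERK branch genes, 4 rose and 1 fell, with a median log2 fold change of 0.12. Ddit3, which encodes the cell death factor CHOP, rose from 9.23 ± 1.32 to 63.5 ± 32.3 RPKM (SD, n = 4; log2 fold change 2.54). Dnajc3, which encodes a co-chaperone of GRP78, rose by 1.57 on the log2 scale. Ppp1r15a, a phosphatase subunit that reverses eIF2α phosphorylation, rose by 1.37 and Atf4 by 0.69. The gene that fell was Eif2ak2, another eIF2α kinase (-0.33), named after its value was seen. With the inhibitor 4 of the 9 rose and 0 fell, although Eif2ak2 again had a log2 fold change of -0.33 (adjusted p = 0.11 by limma).

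Of 9 IRE1 branch genes 8 were tested, with a median of -0.03. Ern2, the IRE1 paralogue of mucosal epithelia, was at 0.04 ± 0.03 RPKM (SD, n = 4) in Ad-LacZ and below the filter. Tmbim6, a membrane protein that restrains IRE1, rose by 0.55, and Fam98b, a subunit of the tRNA ligase complex that joins the cut Xbp1 ends, fell by 0.47 (log2). Of 7 ATF6 branch genes 1 rose, Pdia5, a disulfide isomerase that acts on ATF6 (0.64), and the median was -0.17. With a preparation block 3 of these 7 rose, Wfs1 and Nfya being the others, both named after their values were seen. Of 9 other substrates of the site-1 and site-2 proteases and their escorts 7 were tested, with a median of 0.14. Insig1, which retains the SREBP escort in the ER, was the 1 gene that rose (0.83), from 20.4 ± 1.08 to 36.6 ± 3.49 RPKM (SD, n = 4). Creb3l3 and Creb3l4 were below the filter.

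The target lists had higher medians than the 9 genes, a difference that was not tested. All 14 ATF6 target genes, which include Hspa5 itself, rose in the libraries labelled Ad-Cre, with a median log2 fold change of 1.77. Derl3, a factor of ER-associated degradation, rose from 1.92 ± 0.53 to 93.7 ± 41.4 RPKM (SD, n = 4). Creld2 rose by 3.61, Pdia4 by 3.02 and Sdf2l1 by 2.91 on the log2 scale, all of them ER folding factors. Of 12 XBP1s targets 6 rose and 0 fell (median 0.42), among them the co-chaperone gene Dnajb9 (0.77), the degradation factor gene Edem1 (0.73) and the translocon genes Sec61a1 (0.68) and Ssr3 (0.65). With the preparation as a block 10 of these 12 rose, while the share of all genes called went from 19.0% to 34.7%. Of 11 ATF4 and CHOP targets tested 6 rose and 0 fell (median 0.65), led by Trib3 (1.36), Atf3 (1.33), Nupr1 (1.04) and Psat1 (0.72). With a preparation block 7 of these 11 rose and 1 fell, the asparagine synthetase gene Asns (-0.29, adjusted p = 0.0487 by limma), named after its value was seen. With the inhibitor the rises numbered 14 of 14, 5 of 12 and 4 of 11.

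**Figure D4:**
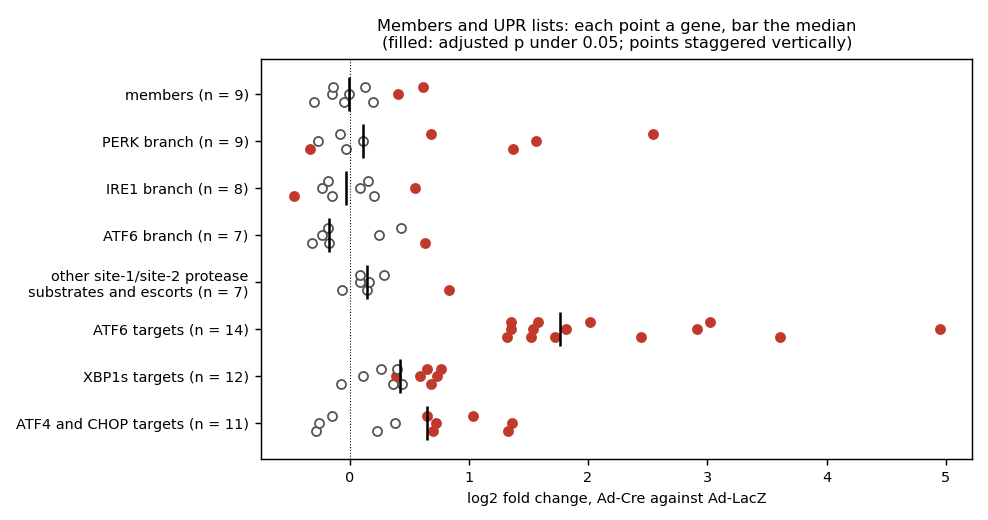
Log2 fold change in Ad-Cre against Ad-LacZ (horizontal axis) of the 9 genes and of 7 lists of UPR genes, a point per gene that was tested, filled where the adjusted p was under 0.05, with a bar at each median. The 14 ATF6 targets are all filled with a median of 1.77, while the 9 genes have a median of -0.01 and 2 filled points.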

How the data were processed

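Gene expression was measured in 16 libraries, each from dispersed islet cells of 1 preparation. Paired-end 150-base reads were aligned and counted by the authors, who deposited RPKM values for 25105 genes. GRCm38 is named in the submitters' processing notes, whereas the annotation, the gene lengths and how counts became RPKM are not given in the sources used here. There were 3 more columns of values, which match no sample label and were left out. Groups and preparations were taken from the labels.

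Depth was estimated from the value of 1 read at GENCODE M21 exon lengths, at which 93.6% to 95.0% of low values were whole reads within 0.05. A gene was tested where at least 4 libraries of the comparison exceeded 1 RPKM. Values were scaled by unweighted TMM factors of the RPKM (30% of ratios and 5% of levels trimmed), and log2(RPKM + 1) was modelled by limma 3.58.1 (R 4.3.3, trended eBayes) on the 8 libraries of each comparison without a block. The threshold was a Benjamini-Hochberg adjusted p of 0.05. Exact permutation tests were two-sided over 4 libraries against 4. Python 3.11.15 was used for tables. The procedure was tested on simulated data whose libraries were drawn independently, with no shared preparation effect. That test therefore does not cover a fit without a block on paired libraries. The members, the UPR lists and the cell type markers were chosen with earlier results of these data known. In each list up to 4 called genes were named, the largest change first, and for 4 members the 3 genes of most similar profile.

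Libraries of the same preparation are paired, because the methods describe parallel cultures of one biological replicate. Their residual correlation was 0.484 to 0.717 in the first comparison of the viruses and 0.157 to 0.658 in the one with inhibitor, against means of -0.20 and -0.13 for other pairs. Alternatives were a pseudocount of 0.1, no filter, unscaled RPKM, quantile normalization, one fit to all 16 libraries, a block for preparation, and leaving out each preparation or the shallowest library.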

Additional observations from a re-analysis of the deposited data

Results flagged for a closer look

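In 4 of the 36 sets of 4 libraries (9 genes in 4 groups), 1 library lay far from the other 3, with a gap above the 95% critical value of Dixon's ratio. Chance flags about 1 in 20 such sets. Eif2ak3 was at 14.3 RPKM in Ad-LacZ + JNK inhibitor F1, below 15.4 to 15.6 RPKM in the others. Xbp1 was at 97.3 RPKM in Ad-LacZ + JNK inhibitor M1, above 87.1 to 87.9 RPKM. Mbtps1 was at 12.3 RPKM in Ad-Cre + JNK inhibitor M2, below 14.7 to 15.1 RPKM. Creb3l2 was at 24.5 RPKM in Ad-LacZ M1, above 21.3 to 21.5 RPKM.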

How the results depend on the processing

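The call of Eif2ak3 held in all 10 alternatives for Ad-Cre against Ad-LacZ and in 10 of 11 with the inhibitor. Of 468 recomputed differences of the 9 genes, 415 kept their direction and their side of the threshold, 8 lost a call, 3 gained one and 42 changed sign. The members called in Ad-Cre against Ad-LacZ were 1 instead of 2 with no filter, with quantile normalization and with all 16 libraries, and 1 in each fit without a preparation. With the inhibitor they were 2 instead of 1 with RPKM as deposited and with quantile normalization, and 0 to 2 without a preparation. Genes called in Ad-Cre against Ad-LacZ numbered 2201 of 11590 in the main fit, 2093 with quantile normalization and 2100 with all 16 libraries. They were 1346 with no filter, 4022 with the preparation as a block and 404 to 1118 without a preparation. Fits with no filter or with fewer libraries tested other sets of genes, so their counts have other totals. With the inhibitor the genes called numbered 2520 of 11598 in the main fit, 3056 with RPKM as deposited and 2489 with quantile normalization. They were 3825 with all 16 libraries and 592 to 3588 without a preparation or a library. For the inhibitor in Ad-Cre they were 1 with quantile normalization, 83 with all 16 libraries, 699 with the block and 0 to 1 without a preparation. For the inhibitor in Ad-LacZ they were 6 with no filter, 7 with RPKM as deposited, 42 with the block and 1 to 2 without a preparation. For the interaction they were 0 with a pseudocount of 0.1, with no filter, with RPKM as deposited and with the block, 1 with quantile normalization, and 0 to 1 without a preparation. The preparation as a block changed no call of the 9 genes.

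All sign changes were in differences that passed no test. With RPKM as deposited the inhibitor differences in Ad-Cre became -0.063 for Atf6b, -0.101 for Creb3 and -0.072 for Mbtps2, and the interactions -0.109 for Atf6b, -0.111 for Creb3, -0.008 for Eif2ak3, -0.128 for Mbtps1 and -0.126 for Xbp1. With quantile normalization the inhibitor difference of Creb3 in Ad-Cre became -0.087, and the interactions -0.041 for Atf6b, -0.088 for Creb3, -0.010 for Mbtps1, 0.055 for Mbtps2 and -0.178 for Xbp1. With all 16 libraries Eif2ak3 became 0.020 under the inhibitor in Ad-Cre and Ern1 0.004 in Ad-LacZ, and with no filter Eif2ak3 became 0.007. Without a preparation or a library, Mbtps1 ranged from -0.033 to 0.023 in Ad-Cre against Ad-LacZ. With the inhibitor, Ad-Cre against Ad-LacZ gave -0.014 to 0.402 for Atf6b, -0.045 to 0.025 for Mbtps1 and -0.109 to 0.011 for Xbp1. The inhibitor in Ad-Cre gave -0.006 to 0.223 for Atf6b, -0.097 to 0.172 for Creb3, -0.040 to 0.023 for Eif2ak3 and -0.019 to 0.074 for Mbtps2. The inhibitor in Ad-LacZ gave -0.024 to 0.016 for Ern1, -0.060 to 0.226 for Atf6b and -0.032 to 0.094 for Creb3. The interaction gave -0.089 to 0.003 for Ern1, -0.196 to 0.088 for Atf6, -0.194 to 0.170 for Atf6b, -0.081 to 0.145 for Creb3, -0.006 to 0.044 for Mbtps1 and -0.091 to 0.028 for Mbtps2. The causes were not tested. Depth limits Mbtps2 most, whose lowest estimate over the 16 libraries was about 162 reads.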
